A study of Mus musculus with 12 samples.

Results

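Etv1, Etv4, Fgf10, Spry2 and Spry4 are genes of fibroblast growth factor (FGF) signalling and of its ERK kinase cascade, or transcription factors linked to it. They were chosen by gene symbol in the 3 tables that the authors deposited, and all 5 were found among the 205 different genes listed. The table of control levels lists Etv1, Etv4 and Fgf10 among 64 genes, the thoracic mutant table lists Etv1, Etv4, Spry2 and Spry4 among 130, and the brachial mutant table lists 0 of the 5 among 62. RNA was sequenced from motor neurons of E12.5 mouse embryos of the strain highly mixed C57BL/6, sorted by Hb9::GFP, in which the motor neuron gene Hb9 drives green fluorescent protein, and all groups carried this reporter. The groups were brachial control, thoracic control, brachial mutant and thoracic mutant, with 3 libraries each, named A, B and C. Controls were control littermates and mutants were PbxMNΔ, a mutation of Pbx genes in motor neurons. Pbx genes encode homeodomain cofactors of Hox proteins. The sources used here do not give which Pbx genes were removed or what drove the removal. The series design describes 9 pooled controls and 9 pooled mutants and does not say how they were divided over the libraries, so p-values reflect the spread between libraries alone, which may be technical.

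FGF ligands bind receptor tyrosine kinases and activate ERK, which raises the transcription of PEA3-type ETS factors and of Sprouty genes in many embryonic tissues. Sprouty proteins in turn damp the cascade. In spinal motor neurons, Etv4 (Pea3) is known as a factor of limb-innervating pools that is induced by GDNF from the limb, and Etv1 (Er81) marks some limb pools and the hypaxial motor neurons that supply the body wall.

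Values are normalized counts, in which the authors scaled each library by 1 factor. Log2 differences were fitted with limma on log2(normalized count + 0.5) over every gene of a table, with Benjamini-Hochberg adjustment over the table and a threshold of 0.05. The authors had already selected the listed genes on the same libraries, so passing this test is not independent evidence. Limma called 98.4% of the genes listed for control levels and 94.6% of those in the thoracic mutant table. Between control levels 35.9% of listed genes passed as higher at the brachial level and 62.5% as lower. In thoracic mutants 19.2% passed as higher and 75.4% as lower. The median listed gene differed by -1.14 and -0.67 on the log2 scale in the 2 tables. When each library was centred on its median listed gene, these medians became -0.40 and 0.04, so every difference below moves upward under that scaling. The reference for this centring is itself a list of genes selected as changed. Of these, 40 of 64 and 103 of 130 were lower, so the centring is not a neutral rescaling and also removes change that the listed genes share. If 1 step of a library's values is 1 read, the listed genes held 14181 to 17457 reads per library for control levels and 50690 to 81370 in the thoracic mutant table. Of 9 motor neuron markers, 0 were listed in these 2 tables, so the identity of the sorted cells could not be checked there. The brachial mutant table listed Chat, Prph and Slc5a7, and all 3 were lower in mutants as deposited, as were 52 of its 62 genes. Limma called 51 of the 62 as lower and 10 as higher. Chat, which makes acetylcholine, held 131.7 to 200.7 normalized counts in brachial controls and 39.2 to 73.1 in brachial mutants, a log2 difference of -1.54 (limma adjusted p = 0.00136).

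In control motor neurons, Etv4 was higher at the brachial level, while Etv1 and Fgf10 were higher at the thoracic level. All 3 passed the test, as did 98.4% of listed genes, and their libraries did not overlap between the levels, as for 98.4% of listed genes.

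Etv4, the limb pool factor, read 23.6, 49.97 and 29.7 normalized counts in brachial control libraries A, B and C. In thoracic control libraries A, B and C it read 1.70, 7.87 and 3.90. Every brachial library was above every thoracic library, and the thoracic libraries rested on 2, 10 and 4 reads if 1 step is 1 read. The group means were 34.4 ± 13.8 and 4.49 ± 3.13 normalized counts (SD, n = 3 each), a ratio of 7.66. The log2 difference was 2.94 (SE 0.55, limma adjusted p = 0.00367), the third highest of the 64 genes. With pseudocounts of 0.1 and 2 it was 3.09 and 2.54, because the thoracic level is low.

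Etv1, the hypaxial and pool factor, ran the other way, with 59.6, 49.97 and 44.5 normalized counts in brachial control libraries A, B and C. The thoracic control libraries held 133.3, 92.1 and 97.6. The lowest thoracic library was above the highest brachial library. The means were 51.3 ± 7.63 and 107.7 ± 22.4 (SD, n = 3 each), and the log2 difference was -1.05 (SE 0.21, limma adjusted p = 0.00508). The value of -1.07 in the authors' deposited table lies close to their limit of 1 on the log2 scale. With the centring the difference was -0.32 and did not pass (adjusted p = 0.222). The difference of Etv1 is thus close to that of the median gene of this list. The list admits only differences beyond the limit, most of them lower. A gene just past the limit therefore lies near this median by selection.

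Fgf10, the only 1 of 22 FGF ligands in any of the tables, encodes a secreted ligand known for its role between limb mesenchyme and ectoderm. It read 7.87, 11.6 and 9.13 normalized counts in brachial controls A, B and C and 27.2, 55.9 and 29.3 in thoracic controls A, B and C. Thoracic library B was the highest, and brachial libraries rested on 7, 10 and 8 reads if 1 step is 1 read. The log2 difference was -1.86 (SE 0.33, limma adjusted p = 0.00291), and without thoracic control B it was -1.53. It stayed negative and passed with the centring, at -1.12 (adjusted p = 0.0207). Exons of Fgf10 share bases with Gm16263, a gene on the other strand in GENCODE M21, and the sources used here do not say whether counting used strand, so reads of these genes cannot be told apart. Spry2 and Spry4 are not in the table of control levels, and their levels in brachial libraries were not analysed here.

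**Figure D1:**
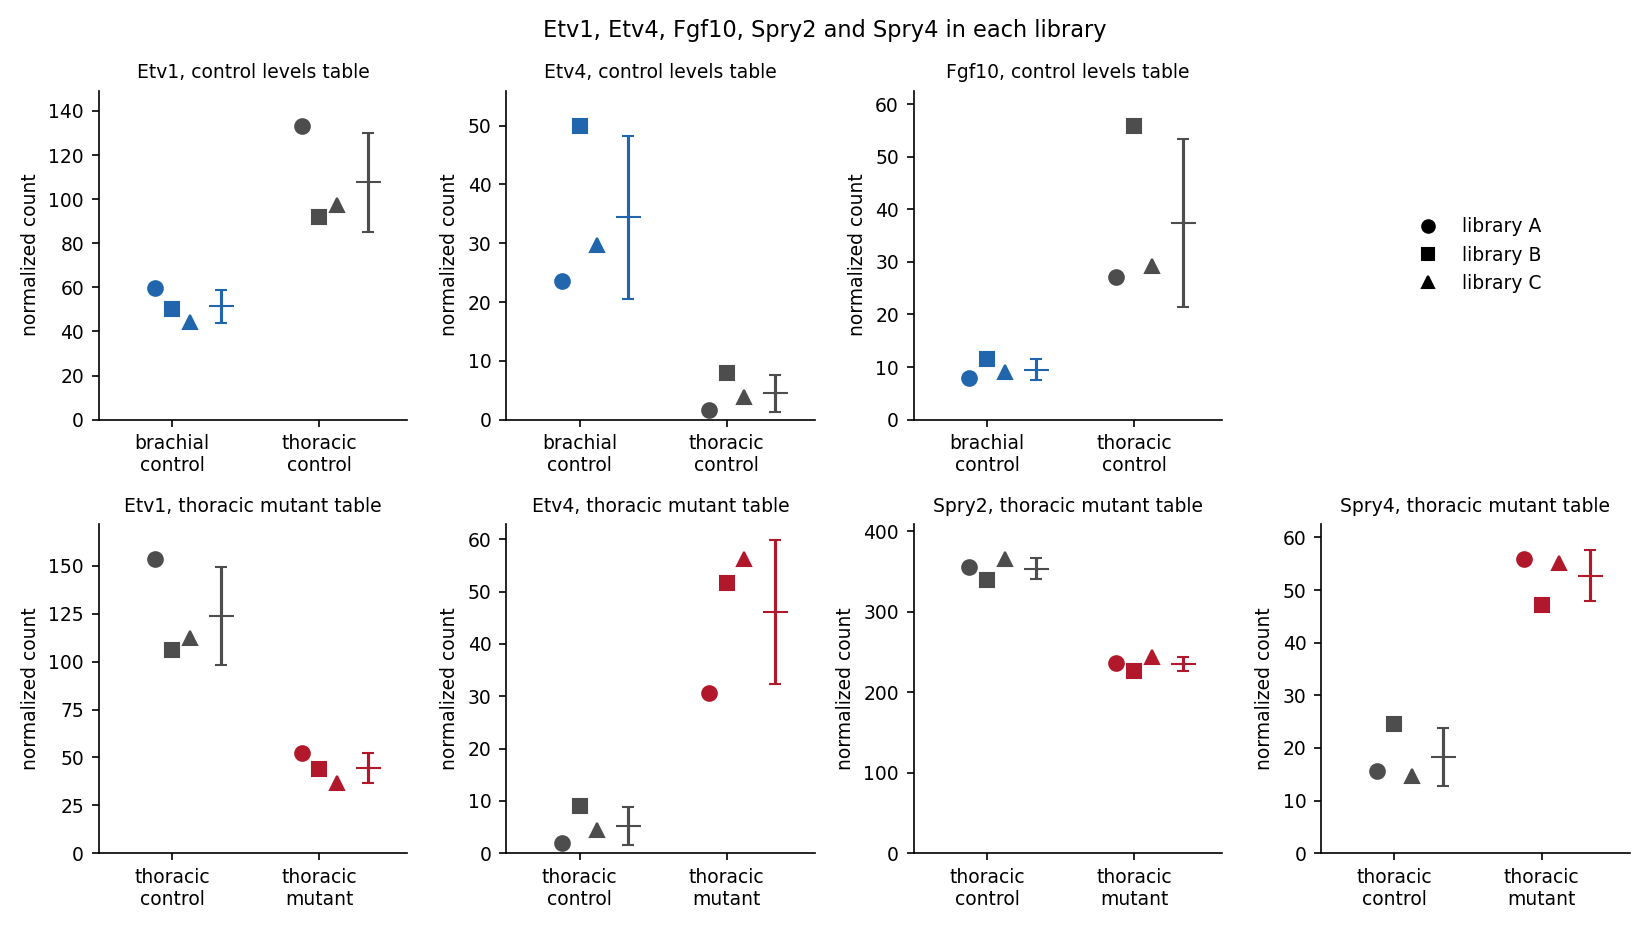
Normalized counts (vertical axes, from 0) of Etv1, Etv4 and Fgf10 in brachial and thoracic controls (upper row) and of Etv1, Etv4, Spry2 and Spry4 in thoracic controls and mutants (lower row). Circles, squares and triangles are libraries A, B and C, the bars are mean ± SD (n = 3), and in every panel the libraries of the groups do not overlap.

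In thoracic motor neurons of Pbx mutants, Etv4 and Spry4 rose, and Etv1 and Spry2 fell as deposited, Spry2 turning slightly positive with the centring. All 4 passed the test, as did 94.6% of the listed genes, and the groups did not overlap for any of the 4, as for 97.7% of listed genes. In the direction of Etv4 and Spry4, 19.2% of listed genes passed as deposited, and with the centring 27 genes passed as higher and 25 as lower. RNA was pooled from sorted cells, so fewer cells that express a gene and less RNA per cell cannot be told apart.

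Etv4 read 1.96, 9.08 and 4.49 normalized counts in thoracic control libraries A, B and C, the same libraries as above on the scale of this table. The mutant libraries A, B and C held 30.5, 51.6 and 56.2. All mutant libraries were above all control libraries, and if 1 step is 1 read the mutants held 35, 47 and 55 reads against 2, 10 and 4. The means of 5.18 ± 3.61 and 46.1 ± 13.7 (SD, n = 3 each) differ 8.91-fold. The log2 difference was 3.20 (SE 0.49, limma adjusted p = 0.00154), the second highest of the 130 genes. Over the libraries left out in turn it ranged from 2.71, without control A, to 3.69, without control B.

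In control libraries A, B and C, Etv1 held 153.5, 106.3 and 112.3 normalized counts. It held 52.4, 43.9 and 36.8 in the mutant libraries, all below the lowest control. The means were 124.0 ± 25.7 and 44.4 ± 7.79 (SD, n = 3 each), 2.80-fold lower in mutants, and the log2 difference was -1.47 (SE 0.21, limma adjusted p = 0.00127). This fall was larger than that of the median listed gene, and it still passed with the centring, at -0.75 (adjusted p = 0.0406).

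Spry4, a Sprouty inhibitor of receptor tyrosine kinase signalling, held 15.6, 24.5 and 14.6 normalized counts in controls A, B and C. The mutant libraries held 55.8, 47.2 and 55.2. The mutant libraries were close together and all were above the highest control. The means rose from 18.3 ± 5.45 to 52.8 ± 4.79 (SD, n = 3 each), and the log2 difference of 1.54 (SE 0.22, limma adjusted p = 0.00131) was the seventh highest of the table. The SE was larger with an intensity trend in limma (0.38) and in the authors' deposited values (0.38). By the authors' own adjusted p, smallest first, Spry4 ranked 87 of the 130 genes. With the centring it was 2.25.

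Spry2, another Sprouty inhibitor of the same cascade, held 355.8, 339.6 and 365.1 normalized counts in controls A, B and C and 236.5, 226.3 and 243.2 in mutants A, B and C. Every mutant library was below every control library. Replicates were tight in both groups, with a coefficient of variation of 3.64% in controls and 3.61% in mutants. The log2 difference was -0.59 (SE 0.13, limma adjusted p = 0.0055), from a mean of 353.5 ± 12.9 to 235.3 ± 8.51 (SD, n = 3 each). That is close to the median listed difference of -0.67, and with the centring it became 0.13 (adjusted p = 0.519). The sign of the Spry2 difference therefore depends on the scaling. The centring takes as its reference genes selected as changed, most of them lower. Since it moves every gene upward, Etv4 and Spry4 could not lose their direction under it. Etv1 kept its direction and its call.

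**Figure D2:**
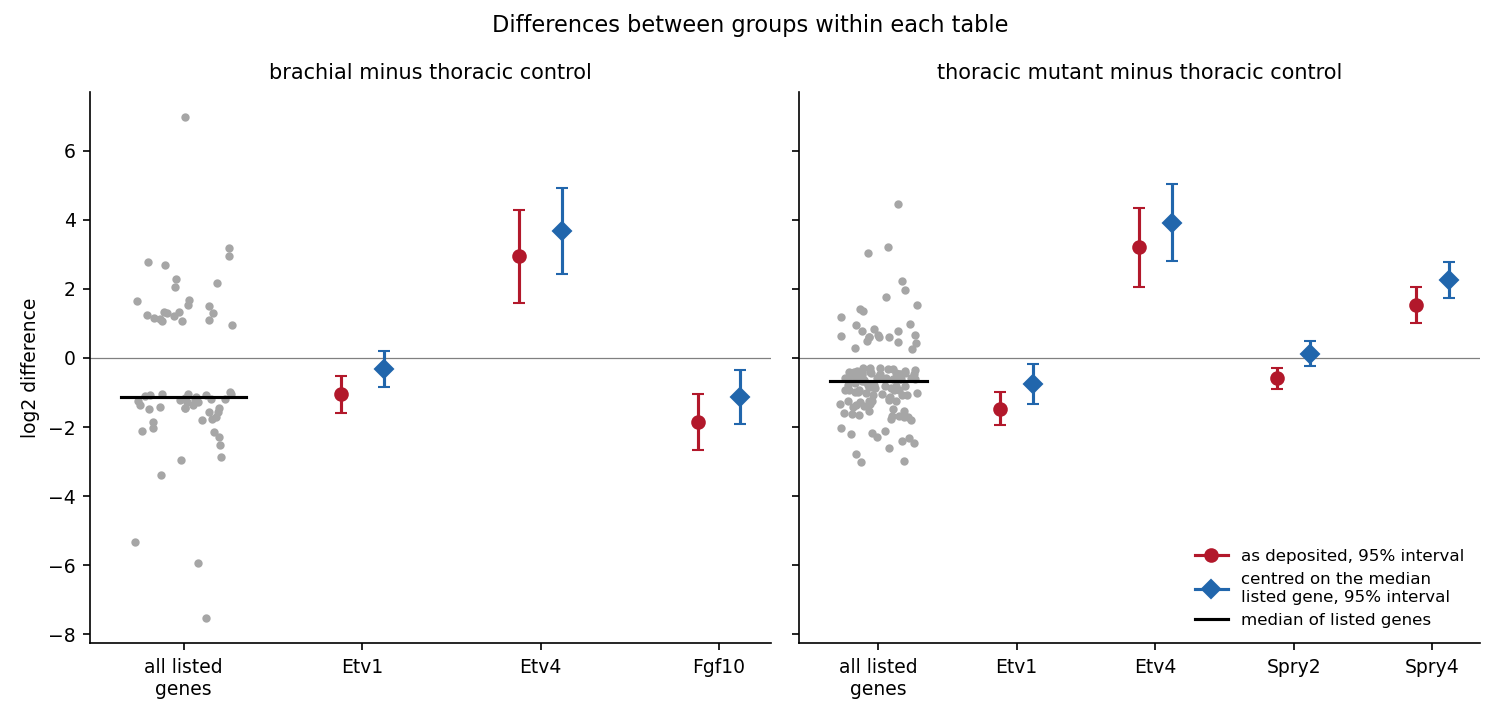
Log2 differences (vertical axis) of all listed genes (grey points, black line at their median) and of the named genes with 95% limma intervals, as deposited (red circles) and after centring each library on its median listed gene (blue diamonds). Etv4 and Spry4 lie above 0 and Etv1 of the mutant table below 0 under each scaling, whereas Spry2 moves from -0.59 to 0.13. The centring moves every gene upward.

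In a ratio of a pair of genes within a library, the factor that scales the library cancels, apart from the small effect of the added 0.5. The log2 ratio of Etv4 to Etv1 was -1.32, 0.00 and -0.58 in brachial control libraries A, B and C. It was -5.93, -3.47 and -4.48 in thoracic control libraries A, B and C on the scale of the control table, and -5.97, -3.48 and -4.50 on that of the mutant table. In thoracic mutants A, B and C it was -0.77, 0.23 and 0.61. The mutant and brachial control libraries thus lay above every thoracic control library, which follows from the separate differences of Etv4 and Etv1 given above. The group means differed by 3.99 between brachial and thoracic controls and by 4.67 between thoracic mutants and controls, or 3.34 and 4.01 without thoracic control A. Both differences use the thoracic control libraries and the genes were chosen with earlier results known, so no test is given.

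The log2 ratio of Spry4 to Spry2 was -4.46, -3.77 and -4.60 in thoracic control libraries A, B and C. It was -2.07, -2.25 and -2.13 in the mutant libraries. The ratio was higher in every mutant library, and the means of -4.28 ± 0.45 and -2.15 ± 0.09 (SD, n = 3 each) differ by 2.13. This follows from Spry4 being listed as higher and Spry2 as lower, each without overlap, and is no further evidence, so no test is given. Leaving out 1 library at a time gave 1.97 to 2.38. With pseudocounts of 0.1 and 2 the difference was 2.15 and 2.05.

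**Figure D3:**
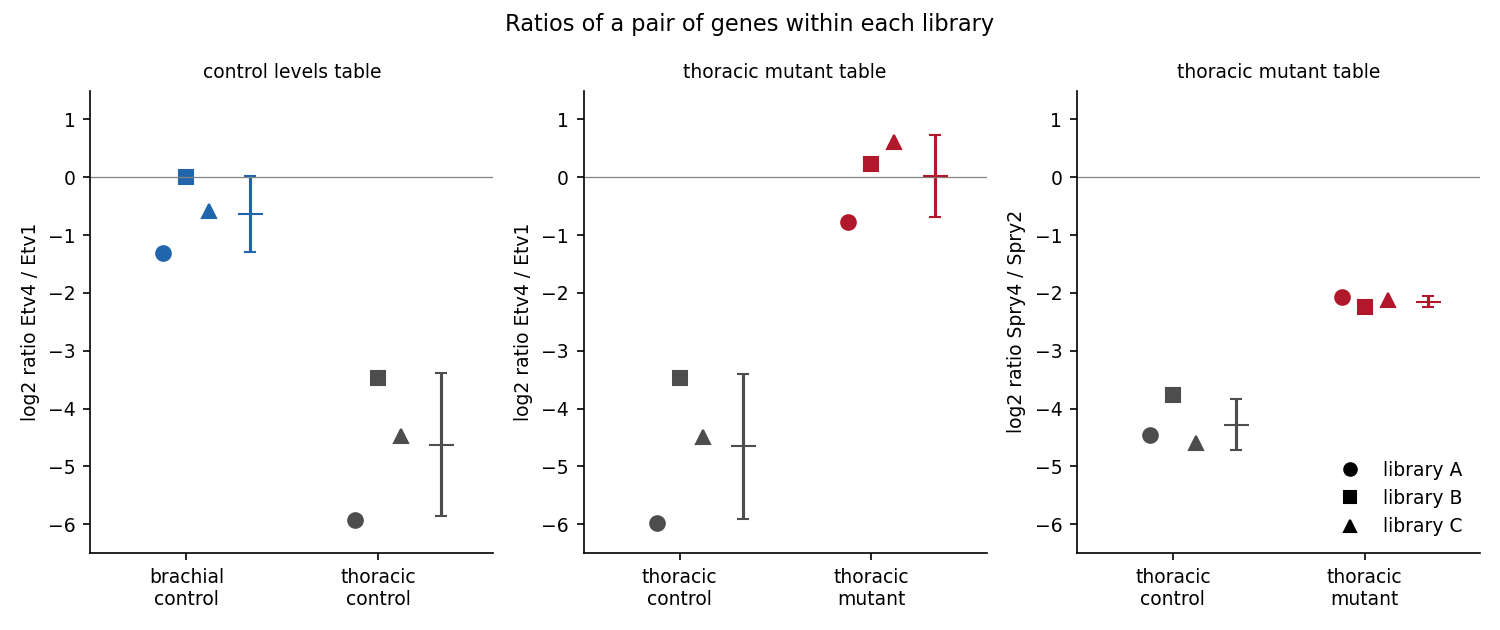
Log2 ratio of Etv4 to Etv1 (left and middle panels) and of Spry4 to Spry2 (right panel) in each library, computed on normalized count + 0.5, with mean ± SD (n = 3). Thoracic mutants lie between -0.77 and 0.61 for the Etv pair and between -2.25 and -2.07 for the Sprouty pair, above every thoracic control library.

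The thoracic control libraries stand in both tables, where their values differ by a factor of 1.151, 1.154 and 1.151 for A, B and C. Dividing the mutant values by the mean factor of 1.152 sets 3 groups side by side on the scale of the control table. On this scale Etv4 averaged 40.0 ± 11.9 in thoracic mutants, 34.4 ± 13.8 in brachial controls and 4.49 ± 3.13 in thoracic controls (SD, n = 3 each). The mutant range of 26.5 to 48.8 overlapped the brachial range of 23.6 to 49.97. Etv1 averaged 107.7 ± 22.4 in thoracic controls, 51.3 ± 7.63 in brachial controls and 38.5 ± 6.76 in thoracic mutants. For Etv1 the mutant range, 31.9 to 45.5, met the brachial range, 44.5 to 59.6, only at its edge. Mutant libraries B and C lay below every brachial control library. The tables were normalized separately, so thoracic mutants and brachial controls were not compared by a test.

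**Figure D4:**
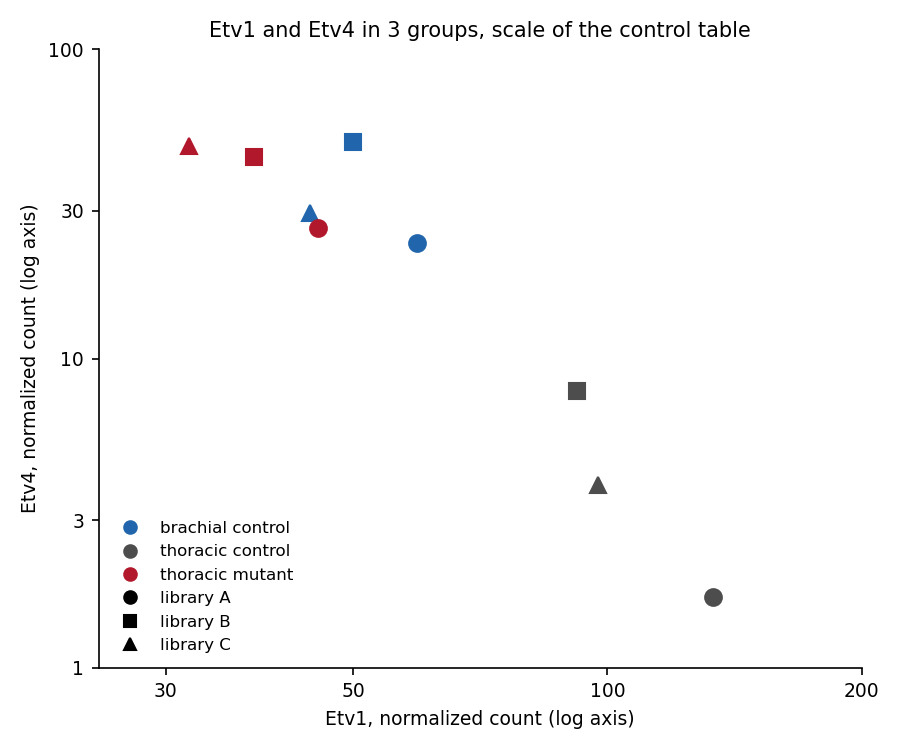
Etv1 (horizontal axis) against Etv4 (vertical axis) in 9 libraries, as normalized counts on log axes, with thoracic mutant values divided by 1.152 to bring them to the scale of the control table. Thoracic controls (grey) lie at high Etv1 and low Etv4. Brachial controls (blue) and thoracic mutants (red) lie at lower Etv1 and higher Etv4, with mutants B and C at the lowest Etv1.

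Per kilobase of exon, which allows levels of different genes to be set side by side, thoracic controls of the mutant table held 169.4 ± 6.17 normalized counts of Spry2. They held 9.33 ± 1.93 of Etv1, 3.84 ± 1.15 of Spry4 and 1.67 ± 1.16 of Etv4 (SD, n = 3 each). Spry2 was thus the most abundant of the 4 by far, and Spry4 and Etv4 overlapped within their SD only slightly. In mutants the levels per kilobase were 112.8 ± 4.08 for Spry2, 14.9 ± 4.41 for Etv4, 11.1 ± 1.01 for Spry4 and 3.34 ± 0.59 for Etv1. Etv4 and Spry4 did not differ beyond their SD, and Etv1 was the lowest. Exon lengths are the union over transcripts in GENCODE M21, which for Etv1 comes to 13.3 kb and can understate its level.

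Pathway genes were counted from lists. Of 12 FGF receptors and partners, 0 were listed in any table. Of 22 ERK pathway feedback genes, among them the Dusp phosphatases and Spred genes, Spry2 and Spry4 were listed in the thoracic mutant table, and 0 were listed in the other tables. Of 26 ETS factors, Etv1 and Etv4 were listed in the control and the thoracic mutant table. Genes of these lists outside the tables were not analysed here.

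Of 37 other ligands and receptors of receptor tyrosine kinases, Met and Kitl were lower in thoracic mutants. Met, the receptor of hepatocyte growth factor, held 841.5, 702.0 and 925.7 normalized counts in controls A, B and C and 548.8, 401.0 and 405.7 in mutants A, B and C. Its log2 difference was -0.87 (SE 0.19, limma adjusted p = 0.00519), and -0.16 with the centring (adjusted p = 0.571). Kitl, the ligand of the Kit receptor, differed by -2.77 (SE 0.36) in the same table, and by -2.06 with the centring. Between control levels, Igf1, a growth factor, was higher at the brachial level by 2.04 (SE 0.25) and Kitl was lower there by a log2 difference of -3.38 (SE 0.39).

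Of 19 immediate-early genes, Egr1 and Jun, which ERK and other kinases induce, were lower in thoracic mutants as deposited, and each turned positive with the centring. Egr1 held 1115, 1026 and 1438 normalized counts in controls A, B and C and 794.9, 734.9 and 807.3 in mutants A, B and C. The difference was -0.60 on the log2 scale (SE 0.17, limma adjusted p = 0.0129). With the centring it was 0.11 (adjusted p = 0.620). Jun differed by -0.45 (SE 0.17, adjusted p = 0.0332), and by 0.26 with the centring. Its call was lost without control A or C or without any mutant library, with differences between -0.49 and -0.31. Neither gene passed as higher under either scaling. Whether ERK had a part in the differences of Egr1 and Jun, or in those of Etv4 and Spry4, was not tested. Of 4 genes linked to Etv4 in limb motor pools, 1 was listed, in the brachial mutant table: the cadherin Cdh8 was 0.40 higher in brachial mutants (SE 0.14, limma adjusted p = 0.0265), where limma called 98.4% of listed genes. With the centring it was 1.09. The call as deposited was lost without control C (0.28) or without any 1 mutant library (0.39 to 0.42). In the same comparison the motor neuron markers Chat (-1.54), Prph (-0.69) and Slc5a7 (-0.59) were lower as deposited, as were 52 of the 62 listed genes. With the centring Chat still passed (-0.86) while Prph (-0.01) and Slc5a7 (0.10) did not. The call of Slc5a7 as deposited was lost without control B or C or mutant A or B (-0.53 to -0.47). Their part in the difference of Cdh8 was not tested.

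**Figure D5:**
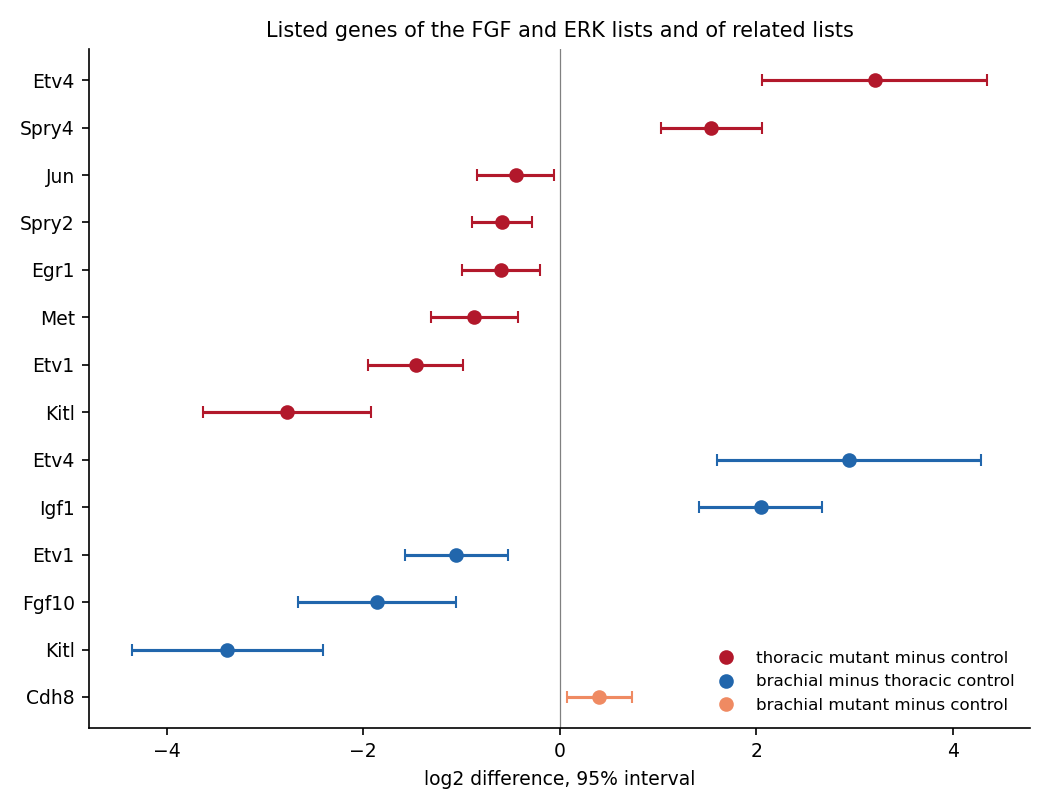
Log2 differences (horizontal axis) with 95% limma intervals for listed genes of the FGF, ERK and ETS lists and of the related lists, in thoracic mutants (red), between control levels (blue) and in brachial mutants (orange). Etv4 and Spry4 lie above 0 in thoracic mutants, and Etv1, Spry2, Met, Kitl, Egr1 and Jun lie below 0 as deposited.

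Markers of other cells differed in the same comparisons. Of 22 mesenchyme and muscle markers, 1 was listed in the thoracic mutant table, Postn, at 26.4 to 41.6 normalized counts in controls and 5.11 to 9.89 in mutants. Of 15 neural progenitor and glial markers, 1 was listed there, Nes, at 529.7 to 712.0 in controls and 409.2 to 438.4 in mutants. With the centring Postn was still lower (-1.40, limma adjusted p = 0.0128), while Nes was at 0.25 and did not pass. The call of Nes as deposited was also lost without control B, mutant A or mutant B (-0.34, -0.44 and -0.48). Of 19 spinal interneuron markers, 1 was listed between control levels, Evx2, at 185.9 to 325.4 in brachial and 381.5 to 686.5 in thoracic controls, and its difference of -1.18 became -0.45 with the centring and did not pass. Of the dorsal root ganglion and the blood lists, with 10 genes each, 0 were listed. The part of these markers in the differences of Etv1, Etv4, Fgf10, Spry2 and Spry4 was not tested.

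The genes most like each of these were taken as the 3 listed genes at the smallest distance in log2 values over the 6 libraries of a table, each gene centred on its mean. The median distance over all pairs was 3.02 between control levels and 1.47 in the thoracic mutant table. Between control levels, Etv1 was nearest to the thoracic Hox gene Hoxc9 (0.44), then to Tmem255a (0.53) and Klf5 (0.63). Fgf10 was nearest to Arhgap25 (0.79), the natriuretic peptide receptor gene Npr3 (0.88) and Hoxa9 (0.97). Etv4 had more distant neighbours, the neurokinin receptor gene Tacr3 (1.37), Smug1 (1.71) and the activin subunit gene Inhba (1.89).

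In the thoracic mutant table, Spry2 lay at a distance of 0.13 from Unc5c, a netrin receptor gene, and 0.22 from Cacna2d1 and Megf11. Etv1 was nearest to Rassf4 (0.48), the neuropeptide gene Cartpt (0.56) and Tanc1 (0.63). For Spry4 the nearest genes were the protease gene Adamts5 (0.93), Prokr2 (1.001) and Pex5l (1.09). The nearest gene to Etv4 was Stx11 (1.05), followed by the signal gene Bmp4 (1.87) and Ramp3 (2.23), both beyond the median distance of all pairs.

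Etv1 and Spry2, the genes lower in thoracic Pbx mutants as deposited, had promoters in the RefSeq table on GRCm38.p6, which was also searched for Fgf10. Etv4 and Spry4 were not searched here. The 250 bases before each start site are shown because Etv1 has a match to a letter pattern of Pbx and Hox partners and Spry2 has none. The patterns were TGATNNAT for Pbx with Hox and CCGGAA for ETS factors, each on both strands, and they do not overlap in these windows. Capitals mark the match.
Etv1, upstream start, chr12:38779832-38780081, plus strand: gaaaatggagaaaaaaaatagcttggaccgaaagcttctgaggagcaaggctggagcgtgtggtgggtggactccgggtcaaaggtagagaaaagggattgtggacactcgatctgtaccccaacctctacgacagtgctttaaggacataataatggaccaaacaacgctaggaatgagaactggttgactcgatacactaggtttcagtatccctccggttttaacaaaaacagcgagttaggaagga
Etv1, downstream start, chr12:38783461-38783710, plus strand: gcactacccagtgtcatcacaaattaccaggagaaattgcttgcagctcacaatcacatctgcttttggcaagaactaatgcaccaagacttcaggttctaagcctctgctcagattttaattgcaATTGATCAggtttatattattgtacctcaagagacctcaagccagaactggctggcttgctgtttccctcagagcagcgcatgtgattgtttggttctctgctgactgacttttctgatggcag
Spry2, chr14:105896820-105897069, minus strand: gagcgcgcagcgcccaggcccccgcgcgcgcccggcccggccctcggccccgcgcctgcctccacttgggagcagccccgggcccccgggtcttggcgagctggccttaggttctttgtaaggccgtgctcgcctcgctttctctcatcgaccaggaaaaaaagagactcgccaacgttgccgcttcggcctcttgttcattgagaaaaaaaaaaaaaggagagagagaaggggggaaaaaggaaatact

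The match in the downstream Etv1 window is on the minus strand and begins 124 bases before the start site. Of all 32851 windows of this length, 7.68% hold TGATNNAT and 12.03% hold CCGGAA. The upstream Etv1 window, Fgf10 and Spry2 hold neither pattern. The base composition differs, with 46.4% and 44.4% G and C in the Etv1 windows, 61.2% for Fgf10 and 62.4% for Spry2. A match is a description of letters and does not show binding.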

How the data were processed

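RNA of 12 libraries was sequenced after amplification of the cDNA, per the labels' protocols. The submitters' processing notes name DESeq2 1.12.3, HTSeq 0.6.1p1, Picard 1.88 and Bowtie 1.0.0, with mm9 and NCBIM37 as builds, and the sources used here give no settings for them. The authors deposited 3 tables of genes they kept, at an adjusted p under 0.05 and, for control levels, a fold limit of 1 per the file headers, with a normalized signal per library, called CPM in the headers, whose values are whole multiples of 1 step per library within a tolerance of 0.0001. The reads could not be recovered by the stricter rule needed for count tests, so the planned edgeR and DESeq2 tests of counts were not run here. Whole library depth was not analysed here. The authors' deposited log2 fold changes and adjusted p-values were used only to describe or filter, and their test score was not used.

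Groups were fitted with limma 3.58.1 in R 4.3.3 on log2(value + 0.5) within each table, with no filter on low values. The fit was run on simulated data in which most genes were unchanged. The listed genes were selected as changed, so that check does not cover the effect of their selection. Ratios, levels per kilobase, distances and motif counts were computed in Python 3.11.15 with numpy 2.4.6 and pandas 2.3.3, and figures drawn with matplotlib 3.10.9. All 5 gene identifiers matched the reference names. The alternatives tried were centring, pseudocounts of 0.1 or 2, a mean of at least 10, a replicate block, an intensity trend, the authors' adjusted p under 0.01 and leaving out each library. The 5 genes, the lists and the tests were chosen with earlier results of these data known. The text names these 5, every listed gene of the pathway lists, and the 3 nearest genes. The ratio of Spry4 to Spry2 was added after the values were seen.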

Additional observations from a re-analysis of the deposited data

How the results depend on the processing

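Of 154 alternative values, 148 were labelled the same. For this a gene kept its direction and its side of the threshold, and a ratio difference stayed within its pooled SD. A count of passing genes had to stay within 1.5-fold, which includes 61 falling to 43 in brachial mutants without mutant B. Some alternatives left values unchanged, as the mean of at least 10 did for control levels. Centring each library on its median listed gene changed 5 of the values outside the 148. It ended the call of Etv1 between control levels (-0.32) and turned Spry2 of the thoracic mutants to 0.13. It also lowered the genes passing from 63 to 40 (24 higher, 16 lower) between control levels, from 123 to 52 (27 higher, 25 lower) in thoracic mutants and from 61 to 20 (13 higher, 7 lower) in brachial mutants. By its construction this centring shifts all genes of a library alike. Leaving out 1 brachial library at a time left 40 to 58 genes passing, with 40 without control B, and the cause was not tested. No call of Etv1, Etv4, Fgf10, Spry2 or Spry4 was lost when any 1 library of its table was left out. Over these fits 61 to 64 of the 64 genes passed for control levels and 100 to 114 of the 130 in the thoracic mutant table. Keeping a call is thus what most listed genes did. The sources used here do not say whether libraries of a letter are related. Between control levels their deviations correlated at 0.29, -0.03 and 0.16 for A, B and C, against -0.23 to 0.075 for unlike letters. In the thoracic mutant table these were -0.03, 0.31 and -0.13, against -0.28 to 0.26. In the brachial mutant table they were 0.10, -0.49 and -0.24, against -0.15 to 0.41. With the letter as a replicate block, 64, 118 and 60 genes passed in the 3 tables and no call of these 5 genes changed. Low reads limit Etv4 in thoracic controls and Fgf10 in brachial controls, where the size of a difference depends on the pseudocount.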
